A study of Mus musculus with 4 samples.

Results

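The genes described here encode 6 receptors of the T-cell surface, *Cd2*, *Cd5*, *Cd6*, *Cd27*, *Cd28* and *Cd69*, and the CD6 ligand Alcam. They are 7 of the 19938 genes that the arrays measured with a probe set of exactly 1 gene symbol, and each of the 7 has 1 such probe set. They were chosen by name, with the log2 fold changes of these arrays between 4-hydroxytamoxifen (4OHT) and ethanol (EtOH) already known, so that their own values in that comparison are a description and carry no test here. The arrays measured ILC87-Ik1-ER cells treated for 24 h with 100 nM 4OHT (2 arrays) or with the vehicle EtOH (2 arrays). ILC87 is a T-cell line without Ikaros that came from a thymic tumour of 1 Ikaros f/f Lck-cre+ mouse, in which the Lck promoter drives Cre in T-lineage cells, and the strain is labelled C57BL/6. Cells of both treatments carry the same deletion and the same MigR1:Ik1-ER retrovirus. It encodes the full-length Ikaros-1 isoform joined to the ligand-binding part of the oestrogen receptor, with a GFP reporter, and GFP-positive cells had been sorted. The 4OHT ligand releases the fusion protein into the nucleus, and 4OHT-treated cells without Ik1-ER were not analysed here, so that Ik1-ER and 4OHT itself cannot be told apart.

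CD2 is an adhesion receptor that binds CD48 in the mouse and strengthens the contact of a T cell with its partner cell. CD5 and CD6 are related receptors with scavenger-receptor cysteine-rich (SRCR) domains that tune signals of the T-cell receptor; CD6 binds Alcam, an immunoglobulin-type adhesion molecule. CD28 and CD27 are costimulatory receptors, of which CD28 binds CD80 and CD86 on antigen-presenting cells and CD27 is a tumour necrosis factor receptor family member that binds CD70. CD69 is a C-type lectin that appears early after T-cell activation and holds the sphingosine-1-phosphate receptor S1PR1 inside the cell.

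Promoter sequences of RefSeq (mouse assembly GRCm38.p6) were available here for 3 of the 7 genes, *Cd5*, *Alcam* and *Cd27*. They are shown because they are the start-site windows of genes that moved in both directions, and because the protein that 4OHT activates binds DNA at sites with a GGAA core. Each window runs from 250 bases before to 50 bases after the annotated start, is printed 5′ to 3′ along the gene, and lies on the minus strand. Capitals mark the letters GGAA on either strand, printed as GGAA or TTCC. The windows lie at chr19:10738925-10739224 for *Cd5*, chr16:52453032-52453331 for *Alcam* and chr6:125236978-125237277 for *Cd27*.
Cd5: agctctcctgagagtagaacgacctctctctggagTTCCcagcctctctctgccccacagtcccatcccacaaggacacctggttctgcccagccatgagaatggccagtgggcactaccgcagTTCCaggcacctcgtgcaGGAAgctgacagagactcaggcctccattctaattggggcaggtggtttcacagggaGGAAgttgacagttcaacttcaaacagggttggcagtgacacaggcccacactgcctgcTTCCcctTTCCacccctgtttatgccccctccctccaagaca
Alcam: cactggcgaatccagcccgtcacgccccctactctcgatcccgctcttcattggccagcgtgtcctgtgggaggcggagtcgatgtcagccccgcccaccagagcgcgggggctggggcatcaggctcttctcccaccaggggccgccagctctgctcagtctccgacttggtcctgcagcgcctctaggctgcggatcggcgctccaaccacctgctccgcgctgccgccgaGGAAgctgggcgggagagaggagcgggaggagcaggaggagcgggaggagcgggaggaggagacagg
Cd27: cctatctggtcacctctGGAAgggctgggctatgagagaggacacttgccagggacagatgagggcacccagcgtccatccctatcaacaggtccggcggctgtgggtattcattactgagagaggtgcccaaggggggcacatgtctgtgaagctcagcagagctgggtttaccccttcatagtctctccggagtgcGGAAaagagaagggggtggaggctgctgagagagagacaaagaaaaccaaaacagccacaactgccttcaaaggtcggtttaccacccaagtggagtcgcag
The *Cd5* window held GGAA 6 times and the longer AGGAA 2 times, counted on both strands, where every AGGAA also counts as a GGAA. The *Alcam* window held GGAA 1 time, inside its only AGGAA, and the *Cd27* window held GGAA 2 times and AGGAA 0 times. Among 32851 RefSeq promoter windows of this length, 96.0% held at least 1 GGAA and 66.7% at least 1 AGGAA. GGAA occurred as often as in *Cd5* or more in 15.7% of the windows, and as often as in *Cd27* or more in 84.6%. The letters GGGA, another core searched on both strands, occurred 6, 7 and 2 times in the *Cd5*, *Alcam* and *Cd27* windows. As many or more were held by 23.0%, 14.1% and 84.3% of all windows in the same order, and 95.3% held at least 1. The *Alcam* window was rich in G and C (69.7%) and held 25 CpG pairs, against 57.3% and 3 pairs for *Cd5* and 56.0% and 7 pairs for *Cd27*, with medians of 52.7% and 7 pairs over all windows. Such matches are letters in a sequence and not measured binding sites.

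Values are log2 signals after robust multi-array averaging (RMA), in which 1 unit is a doubling, and they lay between 3.09 and 14.2, with array medians of 7.11 to 7.16. Across probe sets, which do not count as replicates, the 4OHT arrays correlated at r = 0.994 and the EtOH arrays at r = 0.996. Whether both arrays of a treatment stem from separate cultures is not stated, so that the p-values reflect array-to-array spread that could be purely technical. With 2 arrays on each side, the smallest two-sided p of an exact permutation test is 0.33. All 8 measured T-cell marker genes lay above the array medians under both treatments, at means of 10.13 to 13.02 on the 4OHT arrays and 9.89 to 13.3 on the EtOH arrays, and 0 of 9 B-cell markers did. Among these 8, *Cd3d* was lower after 4OHT (limma log2 fold change −0.94, adjusted p = 0.0172) and the other 7 were not called. The mean over 11 myeloid markers was 6.06 and 6.11 on the 4OHT arrays and 6.09 and 6.05 on the EtOH arrays, and over 8 natural killer cell markers 6.74 and 6.77 against 6.60 and 6.46. Single markers were high, however. Above the medians lay 3 natural killer cell markers under 4OHT and 2 under EtOH, with *Gzma* at means of 12.04 and 11.72. Of 10 stromal, endothelial and epithelial markers, 4 lay above them under both treatments, with *Pdgfrb* at 9.50 under 4OHT and 11.42 under EtOH. Some markers of other cell types were also called: among the myeloid ones *Lyz2* was lower (−1.24, limma adjusted p = 0.0104) and *Itgam* higher (0.68, limma adjusted p = 0.0239). The dendritic cell marker *Cd74* (−0.65, limma adjusted p = 0.0313) and the stromal marker *Pdgfrb* (−1.92, limma adjusted p = 0.00810) were lower. The part of other cells in the values below was not tested, and a smaller share of cells with a transcript cannot be told apart from less of it per cell.

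Of the 7 genes, *Cd2*, *Cd5*, *Cd6* and *Cd27* were called higher and *Alcam* lower in 4OHT-treated cells, while *Cd28* and *Cd69* were not called. A call means a Benjamini-Hochberg adjusted p under 0.05 in limma over all probe sets. For these 7 genes, chosen with this comparison known, a call here and below is a description and not a test. The same threshold called 4.23% of all 19938 genes, 1.23% higher and 2.99% lower, and 3.16% of all probe sets. This background stands beside a set that was listed with its changes known, and nothing is read from the difference. The 4OHT arrays and the EtOH arrays did not overlap for any of the 7 genes, and 56.6% of all genes shared that property, 32.1% with higher and 24.5% with lower 4OHT arrays. Each gene is described below by the value on each array.

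**Figure D1:**
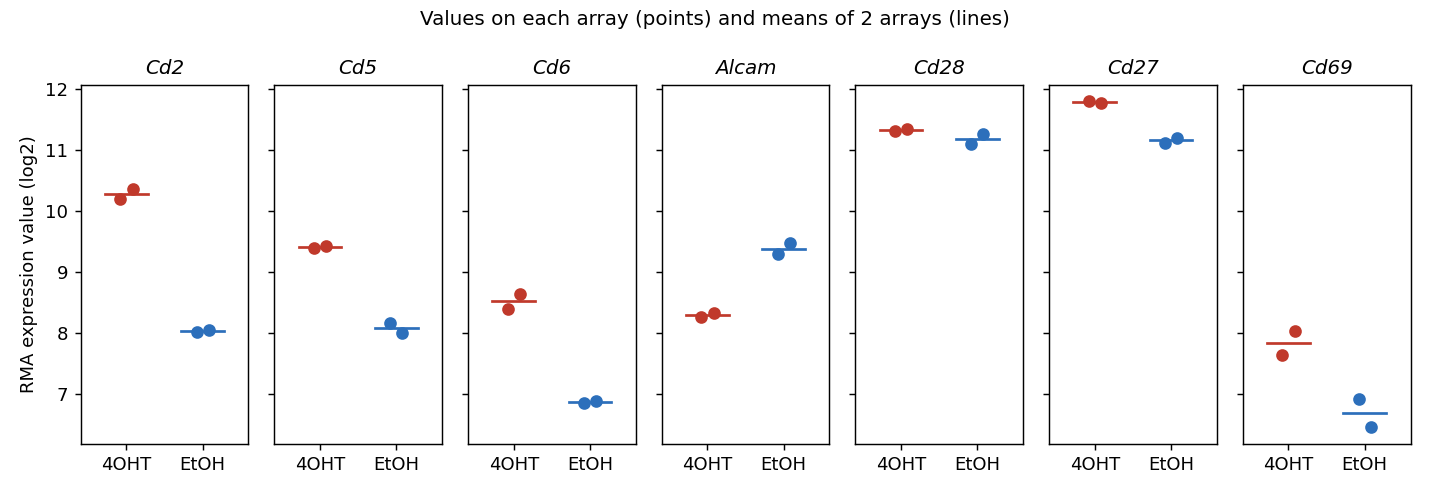
RMA log2 values of the 7 genes on each array, with 4OHT arrays in red on the left of each panel and EtOH arrays in blue on the right. Points are single arrays and lines are means of 2 arrays; the 4OHT points lie above the EtOH points for 6 genes and below them for *Alcam*, with the narrowest gap for *Cd28*.

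*Cd2* had the largest increase of the set. Its values were 10.21 and 10.36 on the 4OHT arrays, against 8.01 and 8.06 on the EtOH arrays. Both 4OHT arrays stood far above both EtOH arrays, by 2.15 to 2.35 depending on which arrays were paired. The means were 10.28 ± 0.11 in 4OHT-treated and 8.04 ± 0.03 in EtOH-treated cells (SD, n = 2 each). The log2 fold change was 2.25 ± 0.09 (SE), a 4.75-fold higher signal, and it was the 6th largest increase among the 19938 genes.

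The SRCR receptor genes *Cd5* and *Cd6* were both higher after 4OHT. *Cd5*, whose product restrains signalling of the T-cell receptor, had values of 9.40 and 9.43 on the 4OHT arrays, against 8.16 and 8.01 on the EtOH arrays. The lower of the 4OHT values was 1.23 above the higher EtOH value, so that the arrays separated clearly. *Cd5* rose by 1.32 ± 0.09 on the log2 scale (SE), or 2.50-fold, the 31st largest increase.

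*Cd6* had values of 8.41 and 8.65 on the 4OHT arrays, against 6.85 and 6.89 on the EtOH arrays. The EtOH arrays nearly coincided, while the 4OHT arrays lay further from each other than those of *Cd5*, with an SD of 0.17 against 0.02. For *Cd6* the log2 fold change was 1.65 ± 0.11 (SE), or 3.15-fold, and it ranked 11th among all increases. The mean of *Cd6* in EtOH-treated cells, 6.87, was below the array medians. The values carry no detection call, and where an EtOH signal is background the fold change is understated.

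*Alcam*, which encodes the ligand of CD6, moved the other way and was the only one of the 7 genes that was lower. Its values were 8.26 and 8.33 on the 4OHT arrays, against 9.30 and 9.47 on the EtOH arrays. Both 4OHT arrays lay below both EtOH arrays, by 0.97 to 1.22. The log2 fold change was −1.09 ± 0.09 (SE), a 2.13-fold lower signal, and *Alcam* ranked 164th among all decreases. In 4OHT-treated cells the mRNA of the receptor was thus higher and that of its ligand lower, within 1 cell line and with no measurement of either protein.

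**Figure D2:**
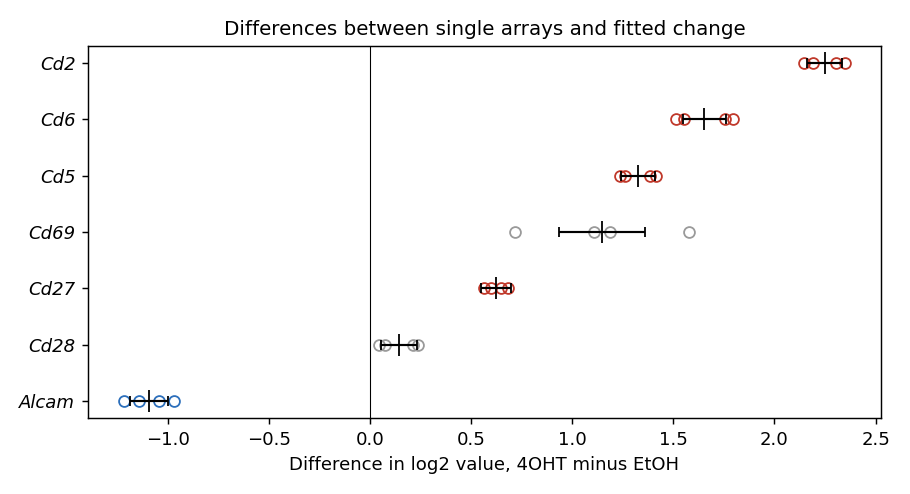
Differences in log2 value between each 4OHT array and each EtOH array (open circles, 4 per gene) for the 7 genes, with the limma log2 fold change (vertical tick) and its SE (horizontal bar). Red marks genes called higher, blue the gene called lower and grey genes not called; *Cd2* lies furthest right at 2.25 and *Alcam* is the only gene left of 0, at −1.09.

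The costimulatory receptor genes changed less. *Cd27* had values of 11.81 and 11.77 on the 4OHT arrays, against 11.13 and 11.21 on the EtOH arrays. The 4 values fell into a pair per treatment, with SDs of 0.02 and 0.06. *Cd27* rose by 0.62 ± 0.07 on the log2 scale (SE), or 1.54-fold, and it ranked 227th among all increases. *Cd28*, the receptor for CD80 and CD86, had values of 11.32 and 11.35 on the 4OHT arrays, against 11.11 and 11.27 on the EtOH arrays. The higher EtOH array lay only 0.045 below the lower 4OHT array. For *Cd28* the log2 fold change was 0.14 ± 0.09 (SE), or 1.103-fold, and the gene was not called.

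*Cd69*, the early activation antigen, had the widest spread between arrays of one treatment. Its values were 7.64 and 8.03 on the 4OHT arrays, against 6.92 and 6.46 on the EtOH arrays. The SDs were 0.28 in 4OHT-treated and 0.33 in EtOH-treated cells, while the SDs of the other 6 genes were at most 0.17. The log2 fold change of *Cd69* was 1.15 ± 0.21 (SE), or 2.21-fold, and it was not called, although its size was above that of the called *Cd27*. Its EtOH mean of 6.69 also lay below the array medians. *Cd69* passed the threshold when probe sets with a mean under 6 were left out (6.1% of the remaining ones called) and when only probe sets with 1 symbol were tested (13.5% called, SE of *Cd69* 0.16). It also passed with a block that pairs arrays of unlike number, which was tried after the data were seen. Why it passed in these fits was not tested.

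Ordered by the difference, *Cd2* came first, followed by *Cd6*, *Cd5*, *Cd69*, *Cd27*, *Cd28* and *Alcam*. Among neighbours in this order, the 4 differences between single arrays overlapped for *Cd5* and *Cd69* alone. Those of *Cd69*, 0.72 to 1.58, spanned the whole range of *Cd5* (1.23 to 1.41) and reached that of *Cd6* (1.51 to 1.79), so that the place of *Cd69* in the order is not fixed by these arrays. All 7 genes kept the sign of their change in each of the 13 other analyses, but most of these could not have changed it. Blocks, filters, the intensity trend, the stricter threshold and averaging per gene leave the log2 fold change of these genes as it is. Groups of arrays that do not overlap also keep the sign when 1 array is left out. Only another quantile normalization and equal array medians could have changed a sign. The largest departures came from leaving out 1 array. The log2 fold change then ranged from 2.17 to 2.32 for *Cd2*, from 1.53 to 1.78 for *Cd6*, from 1.25 to 1.40 for *Cd5*, from 0.91 to 1.38 for *Cd69*, and from −1.18 to −1.01 for *Alcam*. It ranged from 0.58 to 0.66 for *Cd27* and from 0.059 to 0.23 for *Cd28*. The calls were less stable than these sizes. Without the first 4OHT array *Cd2*, *Cd5* and *Cd6* were called, and without the second *Cd2* and *Cd6*, while limma then called 454 (1.28%) and 107 (0.301%) of all 35556 probe sets. Without either EtOH array limma called 0 probe sets on the whole array, the 7 genes included. Each of these fits leaves 1 array for 1 treatment, and the 7 genes were chosen with this comparison known.

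**Figure D3:**
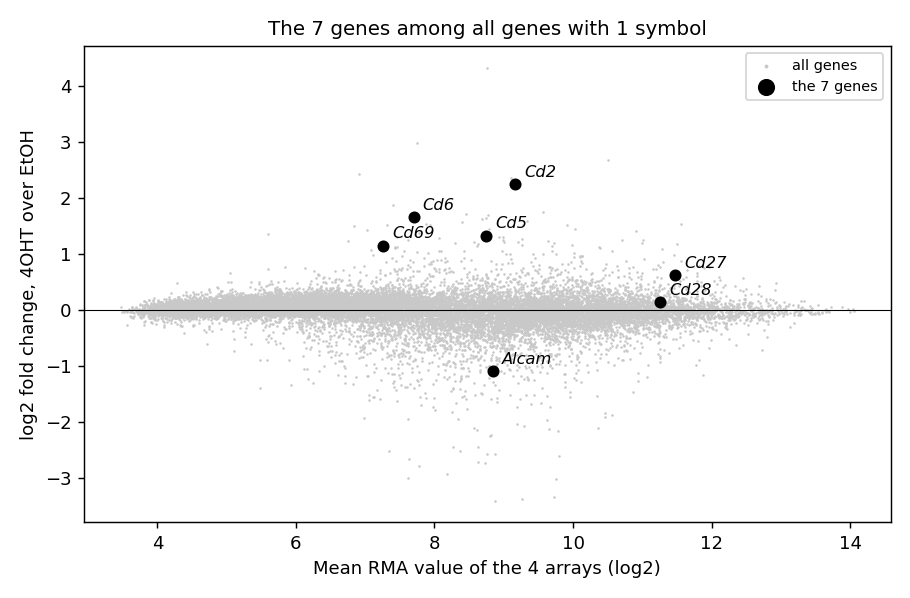
Limma log2 fold change of 4OHT over EtOH against the mean RMA log2 value of the 4 arrays, for 19938 genes (grey) and the 7 genes described here (black). *Cd2*, *Cd6*, *Cd5* and *Cd69* lie along the upper edge of the cloud, *Cd28* near its middle at 0.14, and *Alcam* among its lower genes at −1.09.

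The known partners of these receptors were measured on the same arrays. Counts of called genes in the lists below stand beside 1.23% called higher and 2.99% called lower among all genes. *Cd48*, the CD2 ligand in the mouse, had values of 6.33 and 6.38 on the 4OHT arrays, against 6.32 and 6.04 on the EtOH arrays, and was not called (log2 fold change 0.18, limma adjusted p = 0.483). *Cd2ap*, an adaptor that binds the CD2 tail, was not called either (−0.31, adjusted p = 0.199 in limma). Of the 8 measured genes listed as partners of CD2, *Fyn*, a Src-family kinase of T-cell receptor and CD2 signalling, was lower and none was higher. *Fyn* had values of 10.50 and 10.47 on the 4OHT arrays, against 11.03 and 11.14 on the EtOH arrays (log2 fold change −0.60 ± 0.08 (SE), limma adjusted p = 0.0379).

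Among 15 measured partners and signalling genes of CD5 and CD6, 1 was higher and 14 were not called, with a median log2 fold change of −0.0052, beside 0.031 over all genes. The gene that was higher was *Lgals1*, which encodes the glycan-binding galectin-1 and was also listed among the partners of CD69. It had values of 9.17 and 9.13 on the 4OHT arrays, against 8.61 and 8.59 on the EtOH arrays (log2 fold change 0.55 ± 0.07 (SE), limma adjusted p = 0.0364). *Cdcp1*, a further ligand of CD6 in human cells, was not called at 0.18 (limma adjusted p = 0.391). The adaptor genes *Lcp2* (SLP-76, 0.033) and *Sh2d2a* (0.33) were not called either. None of the other 13 measured genes with SRCR domains was called, and their median was 0.11. *Cd5l*, whose name resembles that of *Cd5*, had values of 5.03 and 5.33 on the 4OHT arrays, against 4.80 and 4.97 on the EtOH arrays.

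Of 16 measured adhesion molecules of the type of Alcam and their membrane linkers, 2 were higher and none was lower. Among all genes 1.23% were higher and 2.99% lower, so that the lack of a lower gene among 16 says nothing about *Alcam*. *Nrp1*, which encodes the semaphorin and VEGF receptor neuropilin-1, had values of 11.14 and 11.10 on the 4OHT arrays, against 10.52 and 10.61 on the EtOH arrays. Its log2 fold change was 0.55 (limma adjusted p = 0.0408). *Msn*, encoding moesin, which links membrane proteins to actin, had values of 11.27 and 11.25 on the 4OHT arrays, against 10.66 and 10.76 on the EtOH arrays (0.55, limma adjusted p = 0.0425).

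In the family of CD28 and its B7-type ligands, 1 of 14 measured genes was lower and 13 were not called. *Btla*, an inhibitory receptor, was the lower one, with values of 6.18 and 6.13 on the 4OHT arrays, against 7.13 and 7.02 on the EtOH arrays (log2 fold change −0.92 ± 0.08 (SE), limma adjusted p = 0.0172). The CD28 relatives *Ctla4*, an inhibitory receptor for the same ligands, and *Icos*, a costimulatory receptor, lie next to *Cd28*. *Ctla4* had values of 8.64 and 9.08 on the 4OHT arrays, against 8.41 and 8.10 on the EtOH arrays, and *Icos* of 8.06 and 7.63, against 8.50 and 8.30. Neither was called (0.60, adjusted p = 0.204, and −0.55, adjusted p = 0.196 in limma). The CD28 ligand genes *Cd80* (0.052) and *Cd86* (0.10) were not called. Of 12 measured genes of CD28 signalling, 1 was higher, *Pik3r1*, the regulatory subunit of the PI 3-kinase that binds the CD28 tail. It had values of 11.28 and 11.19 on the 4OHT arrays, against 10.62 and 10.68 on the EtOH arrays (0.58 ± 0.08 (SE), limma adjusted p = 0.0392).

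None of 17 measured genes of the CD27 axis and the costimulatory tumour necrosis factor receptors was called by limma. At an unadjusted limma p under 0.05 were 8 of them, beside 59 of the 159 genes of all lists and 6587 of all 35556 probe sets. The last base is unlike the others, as it includes 12146 probe sets without a symbol. When limma was fitted to only the 21789 probe sets with 1 symbol, 71 list genes and 5766 probe sets were under 0.05. The lists were drawn up with earlier results known, and these shares were not tested. The 17 genes included *Cd70*, the CD27 ligand (log2 fold change −0.049, limma adjusted p = 0.768), and *Siva1*, whose product binds the CD27 tail (−0.14, limma adjusted p = 0.537). Among 17 measured partners of CD69 and lectins of its type, *Lgals1* alone was called, and *S1pr1*, the receptor that CD69 retains, was not (−0.18, limma adjusted p = 0.389). The 23 other activation genes measured had a median log2 fold change of 0.092, beside 0.031 over all genes. *Cd69* itself was not called. Beside 1.23% higher and 2.99% lower among all genes, none of these 23 genes was called higher and 2 were called lower. These were *Jun*, a component of the AP-1 transcription factor, and *Irf4*, a transcription factor induced by T-cell receptor signals. *Jun* had values of 8.45 and 8.21 on the 4OHT arrays, against 10.03 and 9.68 on the EtOH arrays (−1.52 ± 0.16 (SE), limma adjusted p = 0.0223). *Irf4* had values of 6.83 and 6.86 on the 4OHT arrays, against 8.07 and 7.91 on the EtOH arrays (−1.15, limma adjusted p = 0.0147). The activation genes not called ran from −0.55 (*Icos*) to 0.82 (*Nfkbia*), with *Nr4a1* at 0.30 and *Egr1* at 0.25.

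Among 29 other T-cell surface antigens, 6 were higher, none was lower and 23 were not called, beside 1.23% higher and 2.99% lower among all genes. The median log2 fold change was 0.19, beside 0.031 over all genes. This list too was drawn up with earlier results of these arrays known, and it was not tested. *Cd7*, an immunoglobulin-type receptor of T and natural killer cells, had values of 9.09 and 9.27 on the 4OHT arrays, against 7.62 and 7.59 on the EtOH arrays. Its log2 fold change of 1.57 ± 0.09 (SE) was close in size to that of *Cd6* (limma adjusted p = 0.00952). *Slamf6*, a SLAM-family receptor, was higher by 0.87 (limma adjusted p = 0.0172), *Itgb2*, the common chain of the leukocyte integrins, by 0.84 (adjusted p = 0.02004), and *Cd37*, a tetraspanin, by 0.75 (adjusted p = 0.0379). *Cd52*, a surface glycoprotein of lymphocytes, had values of 7.89 and 7.33 on the 4OHT arrays, against 8.94 and 8.67 on the EtOH arrays, and was not called. It was picked out after its values were seen.

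Over the 10 lists together, 159 genes were measured, each counted once and without the 7 genes themselves. Of these, 10 (6.29%) were higher, 4 (2.52%) were lower and 145 were not called, beside 1.23% higher and 2.99% lower among all genes. The lists were drawn up with earlier results of these arrays known, and no test of a list was made. Their median log2 fold change was 0.087, beside 0.031 over all genes. Without the first 4OHT array 2 list genes were called higher and 3 lower, and without the second 1 and 0, beside 454 and 107 probe sets over the whole array. Without either EtOH array limma called no gene of the lists and no probe set at all.

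**Figure D4:**
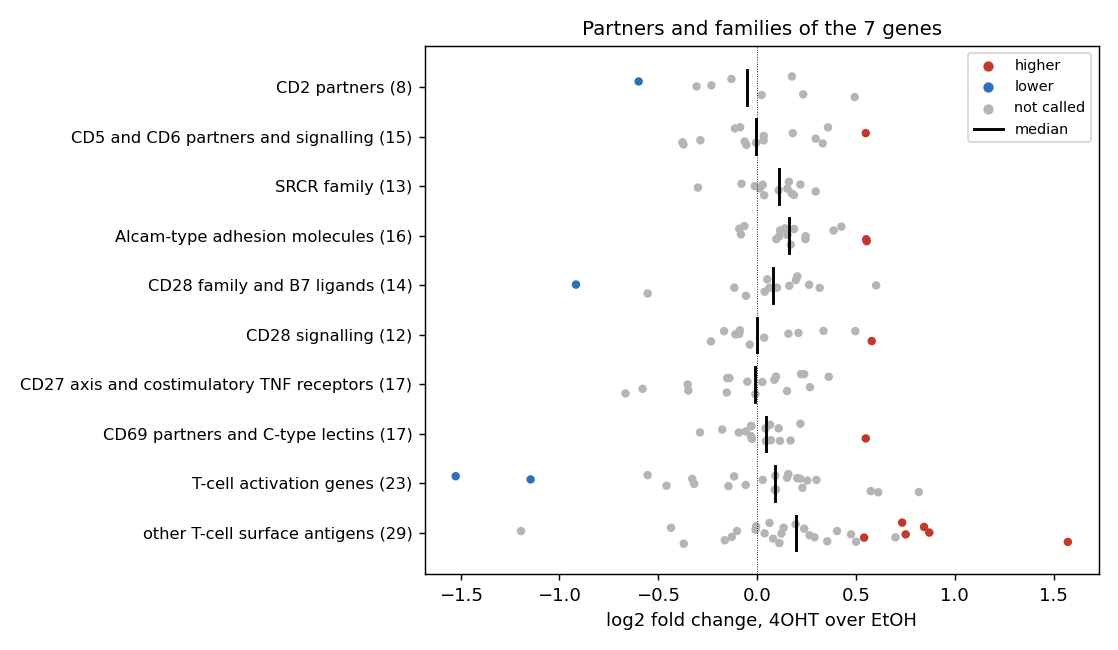
Limma log2 fold changes of 4OHT over EtOH for the measured genes of 10 lists of partners, families and related surface antigens (1 point per gene, number of genes in parentheses; vertical position within a row is arbitrary). Red marks genes called higher, blue genes called lower and grey genes not called, and black bars are medians; 6 of the 29 genes in the lowest row are red, and *Jun* at −1.52 is the leftmost blue point.

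The genes that flank the 7 in the RefSeq order (GRCm38.p6) were also measured, up to 3 on each side. *Cd5* and *Cd6* are close neighbours on chromosome 19, with *A430093F15Rik* as the only measured gene between them, and that gene was not called (log2 fold change 0.17). Of the other genes around them, *Vwce* (−1.19, limma adjusted p = 0.0212) and *Tmem132a* (−0.56, limma adjusted p = 0.0422) were lower. On chromosome 6, *Vamp1* (0.57, limma adjusted p = 0.0357) and *Tapbpl* (1.00, limma adjusted p = 0.0333), on one side of *Cd27*, were higher, as was *Cd27*, while *Mrpl51* beyond them was not called (−0.15). On chromosome 3, by contrast, *Ptgfrn*, next to *Cd2*, was lower (−1.17, limma adjusted p = 0.0181). Around *Cd28* on chromosome 1, *Abi2* was lower (−0.98, limma adjusted p = 0.0174), and none of the 6 neighbours was called for *Alcam* on chromosome 16 or for *Cd69* in the lectin gene cluster of chromosome 6. In all, 2 of 37 neighbours were higher, 4 were lower and 31 were not called, beside 1.23% higher and 2.99% lower among all genes. Whether neighbours differ from other genes was not tested.

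**Figure D5:**
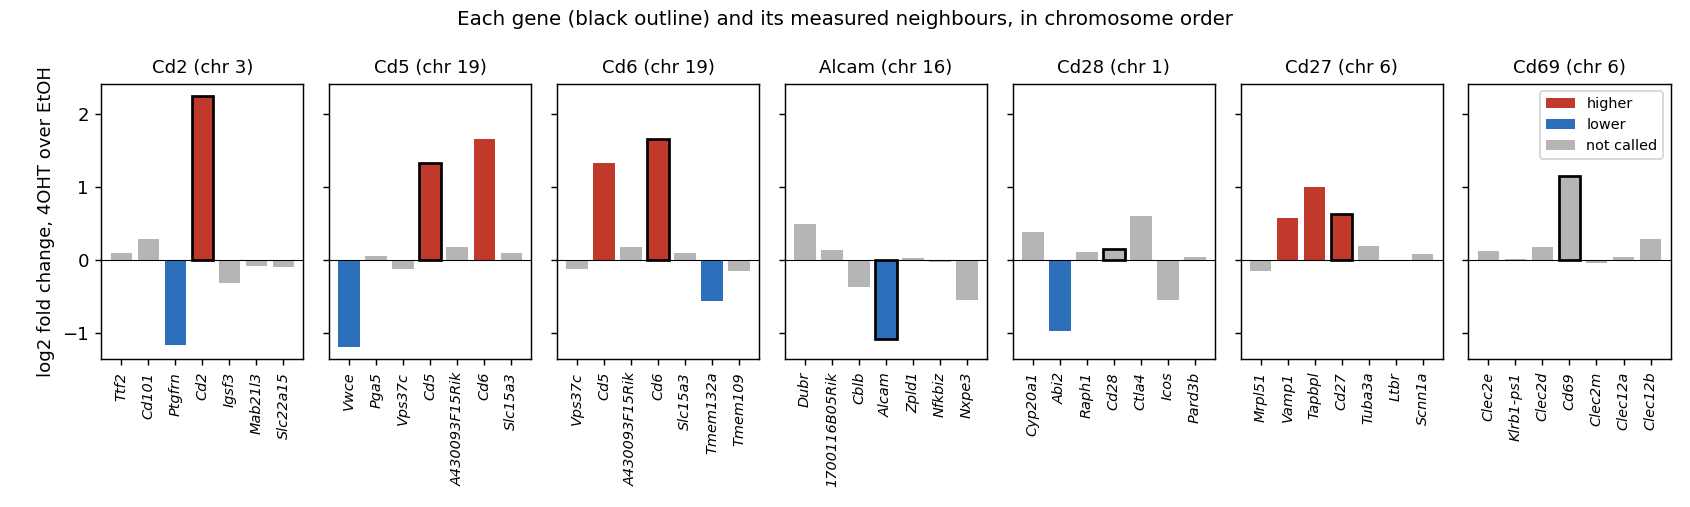
Limma log2 fold changes of 4OHT over EtOH for each of the 7 genes (black outline) and up to 3 measured genes on each side, in their order along the chromosome. Red bars are genes called higher, blue bars genes called lower and grey bars genes not called; *Cd5* and *Cd6* appear in each other's panel, and *Vamp1* and *Tapbpl* stand beside *Cd27* as further red bars.

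Likeness of pattern was measured as the Euclidean distance between the 4 log2 values of 2 genes, each centred on its own mean. With 4 arrays this mostly finds genes with a difference of the same size. Nearest to *Cd2* were *Trav7n-5*, a T-cell receptor alpha variable segment (distance 0.280), the co-receptor gene *Cd4* (0.293) and *BC018473* (0.413). *Cd4* had values of 10.398 and 10.169 on the 4OHT arrays, against 7.876 and 8.001 on the EtOH arrays. Nearest to *Cd5* were *Myl4* (0.0730), *Akap12* (0.0994) and *Chrna9* (0.107), and nearest to *Cd6* were *Cd7* (0.107), *Cdyl2* (0.108) and *Nsg2* (0.185). Nearest to *Alcam* were *Zc3h12c* (0.0245), *Tbxa2r* (0.0367) and *Axin2* (0.0493). *Axin2*, which encodes a negative regulator of Wnt signalling, had values of 9.03 and 9.07 on the 4OHT arrays, against 10.11 and 10.26 on the EtOH arrays.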

How the data were processed

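Labelled cDNA, made from 150 ng of total RNA, was hybridised to Affymetrix Mouse Gene ST 1.0 arrays. Values for 35556 probe sets, on a log2 scale, were deposited by the authors. Per the submitters' processing notes these came from Affymetrix Expression Console 1.1 with RMA, which corrects background, gives all arrays 1 distribution and summarises probes; a change shared by most genes is therefore not visible, and differences of dim probe sets are compressed. For the probe sets, the genome build was not given in the sources used here. The values carry no detection call, and precision is limited by having few arrays.

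Groups came from the sample labels. From the deposited log2 values, 4OHT arrays were compared with EtOH arrays by two-sided limma tests (version 3.58.1 under R 4.3.3; lmFit, eBayes) with no block or filter, Benjamini-Hochberg adjustment over all probe sets, and calls at an adjusted p under 0.05. There were 2 residual and, as limma estimated, 2.66 prior degrees of freedom. Symbols came from the array annotation; 21789 probe sets had 1 symbol, 1621 several and 12146 none, and 21698 symbols were matched by Entrez number to RefSeq (GRCm38.p6). Of several probe sets of a gene, the one with the highest mean was used.

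The members and the 17 gene lists were chosen with earlier results of these data known. Named besides the 7 genes were their main ligands and partners whatever their values, up to 4 called genes of each pathway list with the largest change, called neighbours, and the 3 genes nearest in pattern to *Cd2*, *Cd5*, *Cd6* and *Alcam*, leaving out gene models and small RNAs. The comparison was repeated with a block for the sample number, after another round of quantile normalization, after setting array medians equal, for probe sets whose mean reached 6, for those with 1 symbol, with an intensity trend in eBayes, at an adjusted p under 0.01, with probe sets averaged per gene, and with each array left out in turn. A crossed block was added after the data were seen. The scripts were tested on simulated data. List genes without a probe set of exactly 1 symbol were not analysed here.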

Additional observations from a re-analysis of the deposited data

How the results depend on the processing

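All 7 genes kept their direction under every alternative, though only the further quantile normalization and equal medians could have changed it. The changes below are changes of calls. Where no cause is named, it was not tested. The further quantile normalization, equal medians, the intensity trend and averaging probe sets per gene left 4 of the 7 genes called higher and 1 lower. Testing only the probe sets with 1 symbol called 28 list genes higher and 16 lower, against 10 and 4, and *Cd69* too; 2938 of 21789 probe sets (13.5%) were then called, against 3.16%. A minimum mean of 6 called 16 list genes higher, and *Cd69*, with 6.1% of probe sets called. An adjusted p under 0.01 left 1 of the 7 genes higher (*Cd2*) and 0 lower, and 1 list gene higher (*Cd7*) and 0 lower. Without 1 array, 0 to 3 of the 7 genes were called higher and 0 to 0 lower, and 0 to 2 list genes higher and 0 to 3 lower, with 0 to 454 probe sets called in all. These fits take the lone array's treatment to be as variable as the other one.

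The samples share only a number, and deviations of same-numbered arrays correlated at r = −0.134. With the number as a replicate block, limma called 42 probe sets, against 1123 without it, 1 of the 7 genes higher (*Cd2*), 0 lower, and 0 list genes in either direction; 5704 probe sets had an unadjusted p under 0.05. The crossed replicate block called 778 probe sets, 4 list genes higher and 3 lower, and 5 of the 7 genes, with *Cd69* in place of *Cd27*. Results were counted over the 7 genes, their main partners and the called list, marker and neighbour genes, each under each alternative. Of these results, 385 kept their side of the threshold, 178 lost their call and 7 gained one. No gene called in the main comparison changed sign, while sign changes of genes not called there were not counted. With 2 arrays per treatment, the array number limits what can be called, and low signals have no detection call.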
